A study of Bos taurus with 15 samples.

Results

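The enzymes that destroy cyclic AMP and the kinase that answers to it were examined in the subcutaneous fat of dairy cows around their first calving. The set was defined as 10 genes: the phosphodiesterases PDE3A, PDE3B, PDE4B and PDE4D, the regulatory subunits PRKAR1A, PRKAR2A and PRKAR2B and the catalytic subunits PRKACA and PRKACB of protein kinase A (PKA), and the kinase inhibitor PKIA. Members were the entries whose symbol matched in all 6 tables of comparisons. This gave 7 genes of the 13896 in the tables. PDE3A, PDE3B and PDE4D were not analysed here, so PDE4B was the only phosphodiesterase among the 7.

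The samples were 15 total RNA libraries from dewlap fat of primiparous Holstein cows, in 5 groups of 3. One group was sampled 4 weeks before calving, before the diets (-4 wkpp, weeks peripartum). By the labels, the other groups received a low energy diet (LE) or a high energy diet (HE) and were sampled at 1 and 16 wkpp. The study instead defines groups of severe and moderate negative energy balance by the energy balance at 1 wkpp, and took the most extreme cows for sequencing. It does not state the diet of these cows. Its sequencing summary, read in the order of the labels, places LE as severe and HE as moderate. The same -4 wkpp libraries served as the start of both diets, and no animal was named for any library, so cows could not be followed over time and p-values measure the spread between these libraries only. Within each group the libraries are numbered here by falling size factor, the scaling for depth. An unexplained mark in the sample titles (m1 or m2) is uniform within each group, m2 in LE 1 and HE 16, so whatever it stands for and the group cannot be told apart.

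Cyclic AMP is made by adenylyl cyclases after a hormone such as noradrenaline binds its receptor, and phosphodiesterases break it down again. When cyclic AMP binds the regulatory subunits of PKA, the catalytic subunits are set free to phosphorylate their targets. In fat cells these include hormone-sensitive lipase (LIPE) and perilipin 1 (PLIN1) on the lipid droplet, and this is the classical route by which fat is mobilised. The type II regulatory subunit encoded by PRKAR2B is the form best known from adipose tissue.

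Exonic reads totalled 7794578 to 14625493 per library at -4 wkpp and on the LE diet and 2200989 to 7558093 on the HE diet. The number of counted reads therefore moved with the diet after calving. The study's sequencing summary lists similar totals of sequenced reads in all groups and a lower share of aligned reads in the HE groups. Depth and alignment thus both move with the diet, and their part in the results below was not tested. Tissue markers were uneven too. The fat cell markers CIDEC and FABP4, 2 of 4 listed, summed to 25539 to 31006 normalised exonic counts at -4 wkpp, 41825 to 53731 in LE 1, 24943 to 25966 in LE 16, 6727 to 36406 in HE 1 and 4184 to 21878 in HE 16. Skeletal muscle markers, all 9 measured, summed to 271 to 576 in the -4 wkpp and LE libraries and to 1535 to 4778 in the HE libraries. Most of that sum came from TNNT3 and RYR1 (10495 and 3772 reads over all libraries), while MYLPF had no read in 9 libraries and MYH2 in 8. ACTA1 had 113 reads and CKM 17 reads over all libraries. Endothelial markers (5 of 5) reached 29707 to 63262 in HE 1 against 19260 to 23433 at -4 wkpp, 29468 to 36584 in LE 1, 22206 to 25385 in LE 16 and 23703 to 34023 in HE 16. Mast cell markers (3 of 4) lay between 247 and 515 in the HE libraries and between 1132 and 4427 in the others. Macrophage markers (4 of 5) summed to 1889 to 2126 in HE 16 and to 9861 to 13208 in LE 16. Smooth muscle markers (5 of 5) summed to 21070 to 60250 in HE 16 and to 4340 to 14366 in LE 16, with 7940 to 42876 in the other groups. Keratinocyte markers (4 of 5) ranged from 0 to 334 and lymphocyte markers (3 of 4) from 29.3 to 131 over all libraries. In bulk tissue, fewer cells of a type and less RNA per cell cannot be told apart.

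Each comparison was fitted on its 6 libraries with limma voom, once on exonic and once on whole gene counts (exons plus introns). A gene was called when its adjusted p was below 0.01 in both with the same sign. The study likewise kept genes common to its 2 analyses, and the condition on the sign was added here. All 7 members passed the filter on low counts in every comparison.

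By this rule 0 of the 7 members were called in any of the 6 comparisons. The study, which used DESeq2, reports more differentially expressed genes in each of the 6 comparisons than were called here. A count of 0 by limma therefore does not show that a member was unchanged. The backgrounds differed widely. Of all genes tested, 0.939% were called between -4 wkpp and HE 1, 0.0341% between -4 wkpp and LE 1, 3.18% between LE 16 and HE 16, and 0% between LE 1 and HE 1, between HE 1 and HE 16 and between LE 1 and LE 16. At an unadjusted limma p below 0.05 in both analyses, 2 members passed between -4 wkpp and HE 1 (PRKAR2B and PRKACB, both higher at -4 wkpp), 1 between -4 wkpp and LE 1 (PRKAR2B), 1 between LE 1 and HE 1 (PRKAR2B) and 1 between LE 16 and HE 16 (PKIA, lower in LE 16), with 0 within either diet. The same shares among all genes tested were 22.1%, 9.34%, 16.7% and 23.6%, and 6.63% and 4.28% within the HE and LE diets. When all 15 libraries were fitted together, an alternative chosen after seeing the data, PRKAR2B was called between -4 wkpp and HE 1, where that fit called 1027 of 12502 genes, and the count stayed at 0 elsewhere.

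In exonic counts alone, PRKAR2B and PRKACB passed an adjusted p of 0.01 between -4 wkpp and HE 1, where 13.9% of all genes tested in both analyses did, and PKIA between LE 16 and HE 16, where 9.26% did. The members passing were 0 between -4 wkpp and LE 1 (0.545% of all genes), between LE 1 and HE 1 (0.889%), and within each diet (0% in both).

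**Figure D1:**
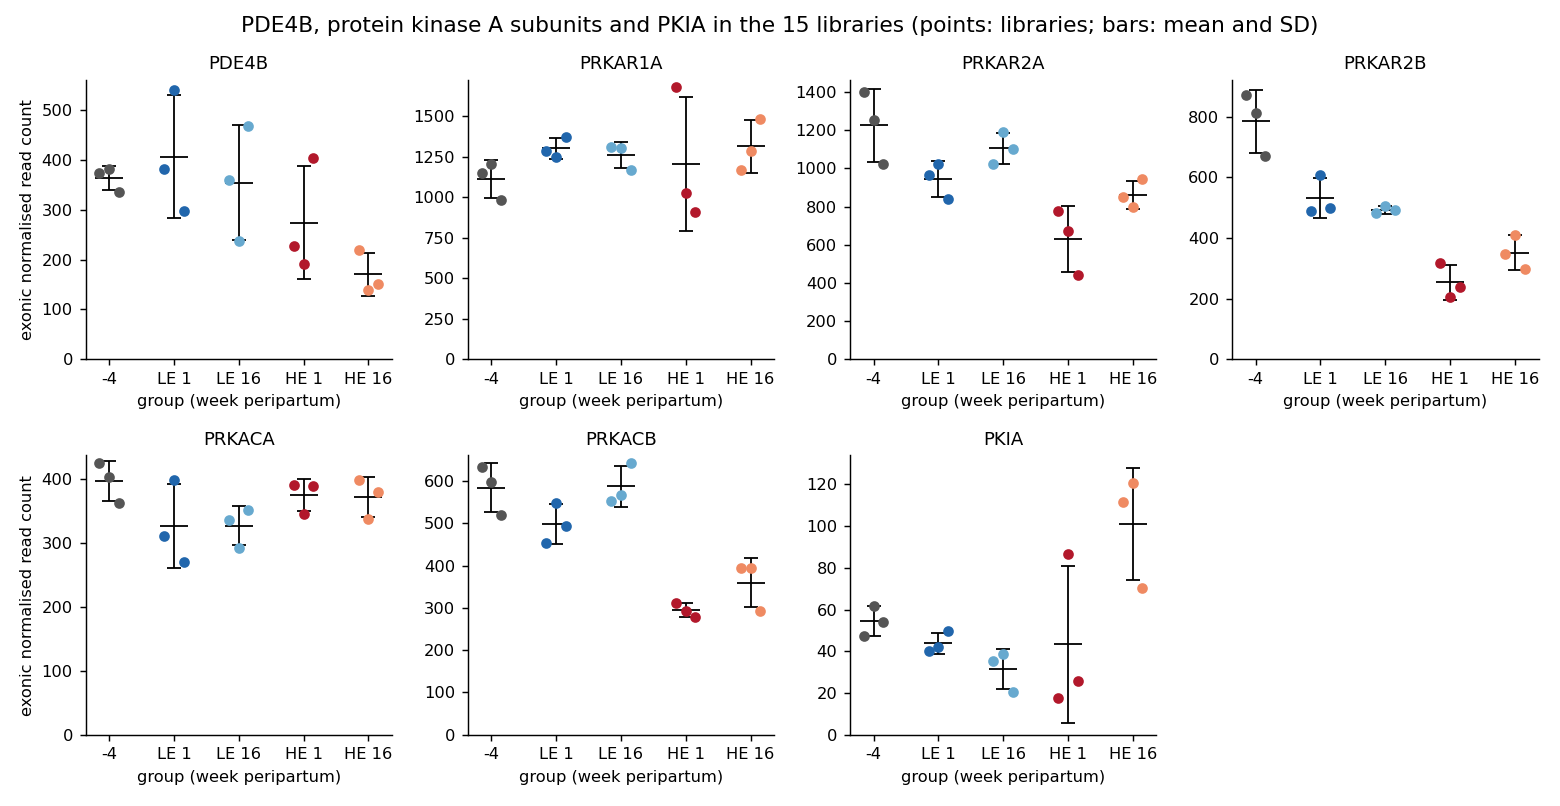
Exonic normalised read count of the 7 genes in each library (points), with the mean and SD of the 3 libraries of a group; the horizontal axis gives the diet and the week peripartum. PRKAR2B and PRKACB lay lower in both HE groups than at -4 wkpp with no overlap, while the PRKACA groups overlapped in every one of the 6 comparisons.

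PRKAR2B had its highest level before calving and its lowest in HE 1. Its exonic normalised counts were 871, 813 and 671 at -4 wkpp, with a mean of 785 ± 103 (SD, n = 3). After calving on the LE diet they were 491, 609 and 498 at 1 wkpp and 481, 507 and 493 at 16 wkpp. On the HE diet they were 316, 205 and 239 at 1 wkpp and 346, 411 and 298 at 16 wkpp. No library after calving reached the lowest value before calving, and no HE library reached the lowest LE library. The order was therefore -4 wkpp, then both LE groups, then both HE groups, and the 2 weeks within each diet overlapped. Pairs of groups without overlap were common among all genes, 41.9% of them between -4 wkpp and HE 1. The share of all genes with this full order was not counted. The means were 533 ± 66.1 in LE 1, 494 ± 12.9 in LE 16, 253 ± 56.7 in HE 1 and 352 ± 56.9 in HE 16 (SD, n = 3 each).

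Between -4 wkpp and HE 1 the exonic log2 fold change of PRKAR2B was 1.58 ± 0.25 (SE), a 3.00-fold difference, with a limma adjusted p of 0.00146. In whole gene counts it was 1.19 ± 0.19 with a limma adjusted p of 0.0156, which missed the threshold, so the gene was not called. In the joint fit of 15 libraries the limma adjusted p was 6.2e-05 for exons and 0.000751 for whole genes. The fit limited to genes averaging 100 or more exonic counts called it too, among 716 of 8013 genes. Against LE 1 the difference from -4 wkpp was smaller, with an exonic log2 fold change of 0.56 ± 0.17 and a limma adjusted p of 0.174. Both comparisons use the same -4 wkpp libraries. LE 1 exceeded HE 1 by 1.03 ± 0.25 on the exonic log2 scale (limma adjusted p = 0.0293) and by 0.61 ± 0.20 in whole gene counts (limma adjusted p = 0.166). At 16 wkpp the corresponding values were 0.50 ± 0.17 and 0.16 ± 0.20.

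The whole gene counts of PRKAR2B kept the step after calving and narrowed the step between diets. They were 2690, 2283 and 2403 at -4 wkpp, 1395 to 1773 in LE 1, 1470 to 1593 in LE 16, 1008 to 1230 in HE 1 and 1026 to 1540 in HE 16. The -4 wkpp libraries again stood above all others, whereas HE 16 overlapped both LE groups. The sum of the 2 fat cell markers was highest in LE 1, and in HE 1 it was 36406, 9349 and 6727 in libraries 1 to 3. PLIN1, another gene of fat cells, had 10629, 8312 and 6576 exonic counts in these libraries and 14002, 17782 and 13249 at -4 wkpp, but 20034 to 25470 in LE 1. LIPE, likewise a gene of fat cells, had 8332, 7242 and 4922 in HE 1 and 3017, 4240 and 3234 at -4 wkpp. The part of fat cell content in the PRKAR2B values was not tested.

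PRKAR2A, the other type II regulatory subunit, showed a like order with smaller steps in exonic counts, but not in whole gene counts. Its exonic counts were 1402, 1252 and 1024 at -4 wkpp, 968, 1022 and 841 in LE 1, 1026, 1189 and 1101 in LE 16, 775, 673 and 441 in HE 1, and 848, 797 and 942 in HE 16. HE 1 stood below every other group without overlap. The -4 wkpp libraries overlapped LE 16, and LE 1 overlapped HE 16. The exonic log2 fold change from HE 1 to -4 wkpp was 0.95 ± 0.26 with a limma adjusted p of 0.0199, and it was 0.40 ± 0.22 in whole gene counts with a limma adjusted p of 0.330. LE 1 exceeded HE 1 by 0.59 ± 0.25 on the exonic log2 scale, and LE 16 exceeded HE 16 by 0.36 ± 0.16. In whole gene counts the last value was -0.04 ± 0.24, so the difference at 16 wkpp was seen in exonic counts only. The whole gene means of PRKAR2A were 4188 ± 652 at -4 wkpp, 3867 ± 105.3 in LE 1, 4035 ± 534 in LE 16, 3235 ± 436 in HE 1 and 4277 ± 1274 in HE 16 (SD, n = 3 each), with HE 16 spanning all other groups except the lowest HE 1 library.

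PRKAR1A, the type I regulatory subunit found in most tissues, had similar exonic group means with a wide spread in HE 1. Its exonic counts were 1153, 1205 and 982 at -4 wkpp, 1283, 1251 and 1375 in LE 1, 1310, 1304 and 1170 in LE 16, 1682, 1024 and 912 in HE 1, and 1167, 1288 and 1487 in HE 16. The HE 1 libraries spanned the range of all other groups. The exonic log2 fold changes ran from -0.23 ± 0.15 between -4 wkpp and LE 1 to 0.16 ± 0.26 between LE 1 and HE 1, and the exonic limma adjusted p was at least 0.583 in every comparison. In whole gene counts they ran from -0.52 ± 0.33 for HE 1 over HE 16 to 0.51 ± 0.34 for LE 1 over HE 1, with limma adjusted p-values of 0.617 and 0.408. Of the 6 comparisons, only -4 wkpp against LE 1 had no overlap in exonic counts, with -4 wkpp lower, and the whole gene counts of these groups overlapped.

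The catalytic subunits differed from each other. PRKACB, one of the genes for the catalytic subunit, had exonic counts of 634, 597 and 520 at -4 wkpp, 453, 549 and 493 in LE 1 and 553, 566 and 642 in LE 16. In the HE groups the counts were 312, 292 and 279 at 1 wkpp and 393, 393 and 292 at 16 wkpp. No HE library reached the lowest of the other 9 libraries, and within the HE diet the 2 weeks overlapped. The share of all genes with such a split of the HE libraries was not counted. The group means were 584 ± 57.8 at -4 wkpp and 294 ± 16.3 in HE 1 (SD, n = 3 each).

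The exonic log2 fold change of PRKACB between -4 wkpp and HE 1 was 0.97 ± 0.22 (limma adjusted p = 0.00836), and in whole gene counts it was 0.68 ± 0.21 (limma adjusted p = 0.0960). LE exceeded HE by 0.75 ± 0.22 at 1 wkpp (limma adjusted p = 0.0502) and by 0.69 ± 0.18 at 16 wkpp (limma adjusted p = 0.0258) in exonic counts. The whole gene values of these differences were 0.45 ± 0.23 and 0.19 ± 0.25. The whole gene counts of PRKACB were 3734, 3685 and 3939 at -4 wkpp, 2935, 2179 and 2170 in HE 1 and 4048, 5196 and 2588 in HE 16, so the lower level of HE 16 than -4 wkpp was seen in exonic counts only. Between -4 wkpp and LE 1 the exonic difference was 0.23 ± 0.16, with overlapping groups.

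PRKACA, the other catalytic subunit gene, had exonic counts of 425, 403 and 362 at -4 wkpp, 310, 398 and 270 in LE 1, 336, 293 and 352 in LE 16, 390, 346 and 390 in HE 1 and 399, 337 and 379 in HE 16. The groups overlapped in all 6 comparisons. Its exonic log2 fold changes lay between -0.21 ± 0.23 for LE 1 over HE 1 and 0.30 ± 0.19 for -4 wkpp over LE 1, and the lowest exonic limma adjusted p was 0.432.

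**Figure D2:**
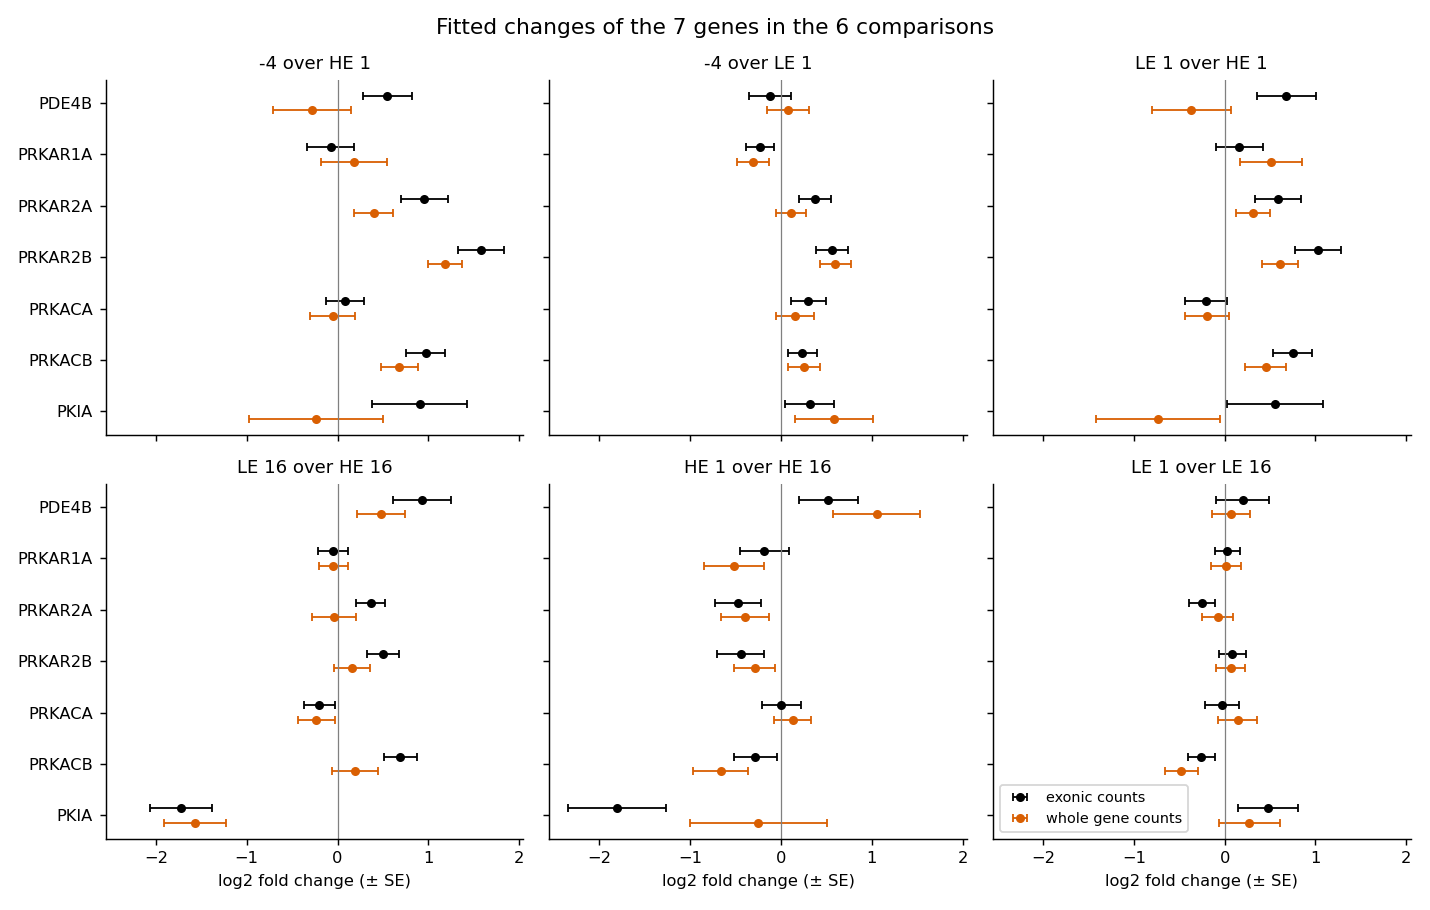
Fitted log2 fold change (horizontal axis, first group over second) with its standard error for the 7 genes in the 6 comparisons, from exonic counts (black) and whole gene counts (orange). The PRKAR2B exonic value between -4 wkpp and HE 1 is 1.58 and the whole gene value 1.19; PDE4B and PKIA lie on opposite sides of 0 in the 2 analyses for -4 wkpp over HE 1 and LE 1 over HE 1, and on the same side for HE 1 over HE 16.

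Ratios of reads within a library do not depend on how libraries are scaled, and they were taken for the subunits. They compare groups and not the abundance of the genes, since gene length was not used. PRKAR2B had 0.756, 0.675 and 0.683 exonic reads per PRKAR1A read at -4 wkpp. The ratio was 0.382, 0.487 and 0.362 in LE 1 and 0.367, 0.389 and 0.421 in LE 16, and it was 0.188, 0.201 and 0.262 in HE 1 and 0.297, 0.319 and 0.200 in HE 16. The -4 wkpp libraries, the LE libraries and the HE libraries thus formed 3 ranges that did not overlap. With PRKAR2A in either place the diets overlapped, and -4 wkpp stayed above all other libraries. PRKAR2B per PRKAR2A was 0.507 to 0.596 in LE 1, 0.426 to 0.469 in LE 16, 0.305 to 0.542 in HE 1 and 0.316 to 0.516 in HE 16. PRKAR2A per PRKAR1A was 0.612 to 0.817 in LE 1 and 0.619 to 0.727 in HE 16. In whole gene reads PRKAR2B per PRKAR1A was 1.03 to 1.54 at -4 wkpp, 0.590 to 0.784 in the LE libraries and 0.391 to 1.06 in the HE libraries. There the HE libraries overlapped both the LE and the -4 wkpp libraries.

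PRKACB had 1.49, 1.48 and 1.44 exonic reads per PRKACA read at -4 wkpp, 1.46, 1.38 and 1.82 in LE 1 and 1.64, 1.93 and 1.83 in LE 16. In HE 1 the ratio was 0.799, 0.844 and 0.717, and in HE 16 it was 0.985, 1.17 and 0.771. All 6 HE libraries lay below all 9 others. The whole gene ratio was 3.80 to 4.07 in HE 1, below the other 4 groups, but 4.21 to 9.32 in HE 16, which overlapped the LE libraries. The exonic reads of the 3 regulatory genes per read of the 2 catalytic genes averaged 3.18 ± 0.13 at -4 wkpp, 3.40 ± 0.31 in LE 1, 3.15 ± 0.36 in LE 16, 3.104 ± 0.79 in HE 1 and 3.49 ± 0.54 in HE 16 (SD, n = 3 each), and the 5 groups overlapped. With 3 libraries against 3, an exact permutation test cannot give a p below 0.1, so no test was made on these ratios.

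**Figure D3:**
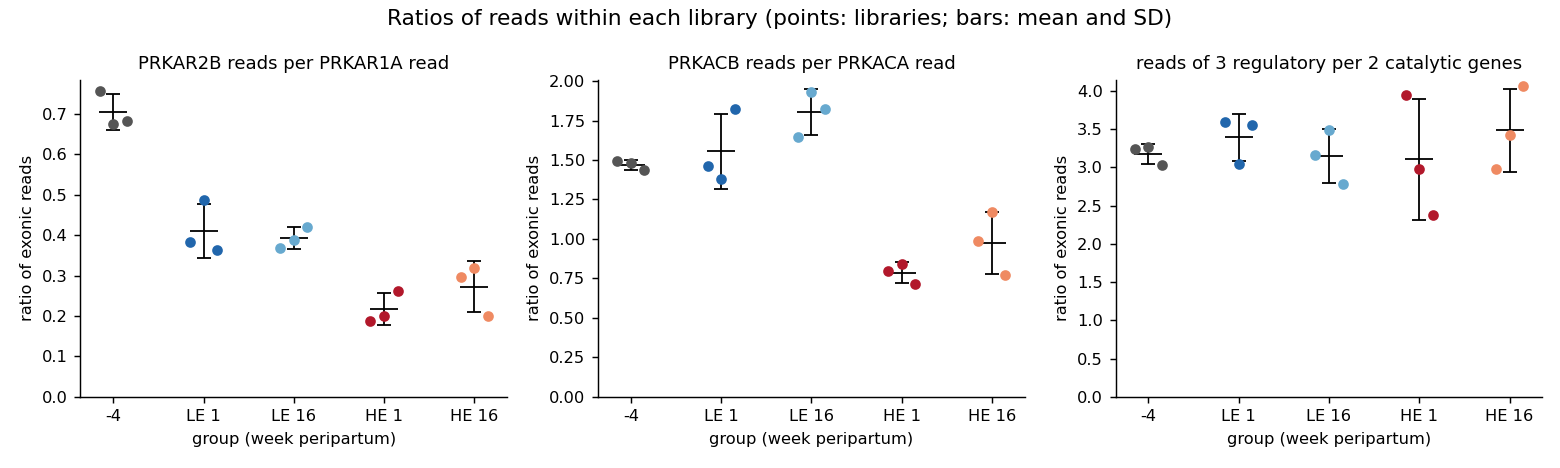
Ratio of exonic reads within each library (points) by group, with the mean and SD of 3 libraries: PRKAR2B per PRKAR1A, PRKACB per PRKACA, and the 3 regulatory genes per 2 catalytic genes. The first falls into 3 ranges (-4 wkpp, LE, HE), the second is at most 1.17 in the HE libraries and at least 1.38 in the others, and the third overlaps among all groups.

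PDE4B, a phosphodiesterase specific for cyclic AMP that hormones and inflammatory signals can induce, varied more between libraries of a group. Its exonic counts were 373, 382 and 335 at -4 wkpp, 382, 541 and 297 in LE 1, 360, 236 and 468 in LE 16, 226, 192 and 404 in HE 1, and 220, 139 and 152 in HE 16. HE 16 lay below the -4 wkpp and LE libraries and overlapped HE 1, in which library 3 held most of the range. LE 16 exceeded HE 16 by 0.93 ± 0.32 on the exonic log2 scale (limma adjusted p = 0.0687), and by 0.48 ± 0.27 in whole gene counts (limma adjusted p = 0.293). The macrophage marker sum was higher in LE 16 too, 9861 to 13208 against 1889 to 2126 in HE 16, and its part was not tested. Against -4 wkpp and LE 1, the HE 1 values of PDE4B had opposite signs in the 2 analyses. The exonic log2 fold change of -4 wkpp over HE 1 was 0.55 ± 0.27 and the whole gene value -0.28 ± 0.43, and LE 1 over HE 1 gave 0.68 ± 0.32 and -0.37 ± 0.43. HE 1 over HE 16 had the same sign in both, 0.52 ± 0.32 in exonic and 1.05 ± 0.48 in whole gene counts, and limma adjusted p-values of 0.561 and 0.497. Whole gene counts in HE 1 were 851, 2129 and 2785, from below to above the 936 to 1706 of the -4 wkpp and LE libraries.

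PKIA, a small protein that binds free catalytic subunits and blocks them, was the least read of the 7 genes. Exonic reads numbered 58 to 101 per library at -4 wkpp, 74 to 76 in LE 1, 32 to 68 in LE 16, 7 to 32 in HE 1 and 26 to 114 in HE 16. The normalised counts were 47.2, 61.7 and 54.2 at -4 wkpp, 40.0, 42.0 and 49.6 in LE 1, 35.3, 38.6 and 20.6 in LE 16, 17.7, 86.5 and 25.7 in HE 1, and 112, 121 and 70.4 in HE 16. HE 16 stood above the -4 wkpp and LE libraries without overlap, and HE 1 ranged from the lowest value of all to within the HE 16 range. LE 16 over HE 16 gave an exonic log2 fold change of -1.72 ± 0.34 with a limma adjusted p of 0.0077, that is 3.30-fold lower in LE 16. The whole gene value was -1.57 ± 0.34 with a limma adjusted p of 0.0220, so PKIA was not called at 0.01 and passed in both analyses at 0.05.

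The skeletal muscle marker sum was also higher in HE 16, with 2010, 3154 and 4103 counts in libraries 1 to 3 against 333 to 504 in LE 16, as was the smooth muscle sum, and their part in the PKIA difference was not tested. In HE 1 the marker sum was 1535, 2202 and 4778 in libraries 1 to 3. Within the HE diet PKIA gave -1.81 ± 0.54 for HE 1 over HE 16 in exonic counts (limma adjusted p = 0.317) and -0.25 ± 0.75 in whole gene counts. In the comparisons of HE 1 with -4 wkpp and with LE 1 the exonic and whole gene values of PKIA had opposite signs, 0.90 ± 0.52 and -0.23 ± 0.74, and 0.56 ± 0.53 and -0.73 ± 0.68.

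The 2 analyses differ by the intronic reads, which were unevenly spread. PRKACB had 7.01 ± 1.98 whole gene reads per exonic read at -4 wkpp, 6.65 ± 1.73 in LE 1, 7.86 ± 1.52 in LE 16, 8.06 ± 1.03 in HE 1 and 9.77 ± 2.50 in HE 16 (SD, n = 3 each). This put it between the 93.6th and 97.6th percentile of genes averaging 100 or more exonic counts. PRKACA had 1.39 to 1.72 and PRKAR1A 1.39 to 1.86 on average, near the middle of all genes, whose median was 1.51 to 1.75. PRKAR2A had averages of 3.65 to 5.31, PRKAR2B of 3.14 to 4.41 and PDE4B of 3.33 to 7.08, each highest in HE 1. For PKIA the ratio in HE 1 was 12.6 ± 9.69 against averages of 3.15 to 5.37 in the other groups.

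Whether the change from 1 to 16 wkpp differed between diets was tested on the 12 libraries after calving. The test called 0 of 7 members, and 0% of all genes in both analyses together as in exonic counts alone. At an unadjusted limma p below 0.05, 0 members passed in both analyses and 1, PKIA, in exonic counts, where 2.50% and 4.61% of all genes did. PKIA had a difference of 2.25 ± 0.63 on the exonic log2 scale with a limma adjusted p of 0.981, and of 0.77 ± 0.84 in whole gene counts. PRKAR2B had 0.51 ± 0.29 in exonic and 0.40 ± 0.27 in whole gene counts. The standard errors of the other 5 members were 0.26 to 0.49 in exonic counts. Changes of that size, and larger ones such as that of PKIA, could therefore not be called.

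Groups that do not overlap in exonic counts were common among all genes and are given for that reason beside the members. They were 3 of 7 members between -4 wkpp and HE 1 (PRKAR2A, PRKAR2B and PRKACB, all higher at -4 wkpp) against 41.9% of all genes. The same 3 did not overlap between LE 1 and HE 1, all higher in LE 1, against 37.2% of all genes. Between LE 16 and HE 16 they were 5 of 7, with PDE4B, PRKAR2A, PRKAR2B and PRKACB higher and PKIA lower in LE 16, against 40.8%. There were 3 of 7 between -4 wkpp and LE 1 (PRKAR2A and PRKAR2B higher, PRKAR1A lower at -4 wkpp) against 19.3%. Within the HE diet it was 1 of 7 (PRKAR2A, lower at 1 wkpp) against 18.8%, and within the LE diet 3 of 7 (PRKAR2A and PRKACB lower, PKIA higher at 1 wkpp) against 12%. The median exonic log2 fold change of the members was 0.90 for -4 wkpp over HE 1, 0.30 for -4 wkpp over LE 1, 0.59 for LE 1 over HE 1 and 0.36 for LE 16 over HE 16, where the medians of all genes were -0.03, -0.01, -0.00454 and 0.00722. Within the diets it was -0.28 for HE 1 over HE 16 and 0.03 for LE 1 over LE 16, against 0.03 and -0.02 for all genes. In whole gene counts the first 4 medians of the members were 0.18, 0.15, 0.31 and -0.04, so at 16 wkpp the sign was not shared by both analyses.

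The rest of the cyclic AMP pathway was described from a list of 53 further genes, of which 40 were analysed. Between -4 wkpp and HE 1, 3 of the 40 were called, where 0.939% of all genes were, and all 3 were higher in HE 1. These were the phosphodiesterases PDE1B and PDE2A and RAPGEF3, which encodes EPAC1, a cyclic AMP sensor that acts without PKA. Between LE 16 and HE 16, 8 were called, where 3.18% of all genes were, and all 8 were higher in HE 16: the same 3 genes, the adenylyl cyclases ADCY4 and ADCY6, the phosphodiesterase PDE4A, the kinase inhibitor PKIG and the anchoring protein AKAP6. In the other 4 comparisons 0 of the 40 were called by limma, and 10, 13, 8 and 5 had an unadjusted p below 0.05 in both analyses between -4 wkpp and LE 1, between LE 1 and HE 1, within LE and within HE. These are 25%, 32.5%, 20% and 12.5% of the 40, where the shares of all genes were 9.34%, 16.7%, 4.28% and 6.63%. The median exonic log2 fold change of the 40 was -0.21 for -4 wkpp over HE 1 and -0.36 for LE 16 over HE 16, and in whole gene counts it was -0.34 and -0.21. Most calls were lost when single libraries were left out, among these genes as among all genes. Between -4 wkpp and HE 1, 4 of the 40 (the same 3 and ADCY4) were called without HE 1 library 1, where that fit called 182 genes in all, and 0 without any other single library, where the fits called 0 to 3 genes in all. Between LE 16 and HE 16 leaving out any single library left 1 to 3 called, of 27 to 133 genes called in all against 366 with all libraries, and ADCY6 was among them each time. Between LE 1 and HE 1, 4 were called without HE 1 library 1 (ADCY4, PDE2A, RAPGEF3 and PLIN1), where that fit called 707 of 11640 genes.

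PDE2A, a phosphodiesterase stimulated by cyclic GMP, had exonic counts of 977, 1629 and 1732 at -4 wkpp, 2986, 2503 and 3599 in LE 1, 1602, 2586 and 2183 in LE 16, 9745, 7760 and 12170 in HE 1, and 5769, 6459 and 4509 in HE 16. Every HE library exceeded every other library, and the share of all genes with such a split was not counted. PDE2A rose 6.88-fold from -4 wkpp to HE 1 in exonic counts (limma adjusted p = 0.00013, and 0.00962 in whole gene counts) and was 2.62-fold higher in HE 16 than in LE 16 (limma adjusted p = 0.00328 and 0.00992). LE 1 had a 3.21-fold lower level than HE 1 with a limma adjusted p of 0.00863 in exonic and 0.0719 in whole gene counts.

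PDE1B, a phosphodiesterase activated by calcium and calmodulin, had mean exonic counts of 57.7 ± 13.1 at -4 wkpp, 146 ± 9.54 in LE 1, 116 ± 7.71 in LE 16, 339.7 ± 16.4 in HE 1 and 345 ± 100.4 in HE 16 (SD, n = 3 each). It rose 5.95-fold from -4 wkpp to HE 1 (limma adjusted p = 0.000175 in exonic and 0.00754 in whole gene counts). RAPGEF3 rose 6.39-fold over the same interval (limma adjusted p = 9.2e-05 and 0.00724), from 721 ± 228 at -4 wkpp to 4495 ± 119.5 in HE 1. It averaged 1336 ± 448 in LE 1, 759 ± 234 in LE 16 and 2945 ± 806 in HE 16. At 16 wkpp HE exceeded LE 2.90-fold for PDE1B and 3.92-fold for RAPGEF3. The endothelial marker sum was above that at -4 wkpp without overlap in HE 1 and also in LE 1, and LE 1 and HE 1 overlapped in it. HE 16 and LE 16 overlapped too, and the part of this sum in these values was not tested.

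ADCY6 averaged 1652 ± 203 at -4 wkpp, 1091 ± 136 in LE 1, 782 ± 44.3 in LE 16, 1991 ± 203 in HE 1 and 2561 ± 247 in HE 16, and it was 3.24-fold higher in HE 16 than in LE 16 (limma adjusted p = 0.000428 in exonic and 0.00209 in whole gene counts). ADCY4 averaged 362 ± 36.6 in LE 16 and 1116 ± 86.3 in HE 16 and was 3.08-fold higher in HE 16. AKAP6, an anchor of PKA known from muscle and heart, was 3.92-fold higher in HE 16, PKIG 2.77-fold and PDE4A 2.41-fold. The skeletal and the smooth muscle marker sums were higher in HE 16 than in LE 16 too, without overlap, and their part in these values was not tested. Most of the skeletal muscle sum came from TNNT3 and RYR1. LIPE and PLIN1, the targets of PKA on the lipid droplet, were called in 0 of 6 comparisons by limma with all libraries. LIPE averaged 3497 ± 652 at -4 wkpp, 6878 ± 1221 in LE 1, 4234 ± 181 in LE 16, 6832 ± 1742 in HE 1 and 5031 ± 3645 in HE 16. PLIN1 averaged 15011 ± 2429, 22495 ± 2754, 13566 ± 3619, 8505 ± 2033 and 6904 ± 4225 in the same order.

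**Figure D4:**
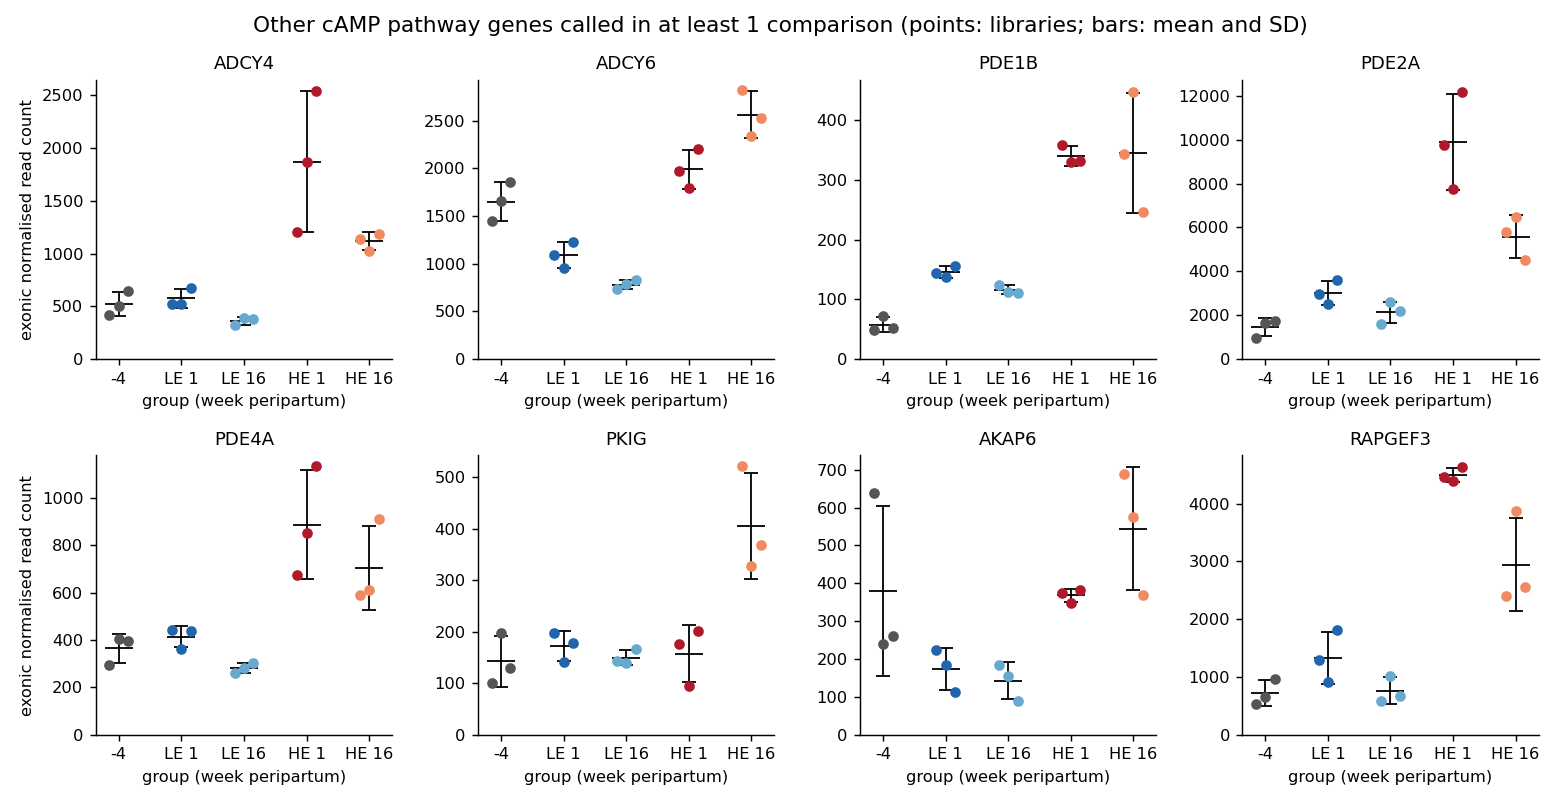
Exonic normalised read count in each library (points) of the 8 other cyclic AMP pathway genes called in at least 1 comparison, with the mean and SD of 3 libraries per group. All 8 were called as higher in HE 16 than in LE 16, and PDE1B, PDE2A and RAPGEF3 also as higher in HE 1 than at -4 wkpp.

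Among 6519 genes averaging 100 or more exonic counts in every comparison, the 5 with exonic log2 fold changes most like those of PRKAR2B over the 6 comparisons were P4HA1, NDUFS1, ACAA2, BLCAP and SPSB1. Their Euclidean distances from PRKAR2B were 0.11, 0.22, 0.24, 0.24 and 0.25 on the log2 scale. P4HA1, a prolyl hydroxylase of collagen synthesis, had 1.56 for -4 wkpp over HE 1, 0.60 for -4 wkpp over LE 1 and 0.98 for LE 1 over HE 1. NDUFS1, a subunit of respiratory complex I, had 1.58, 0.68 and 0.90, and ACAA2, a thiolase of fatty acid oxidation, had 1.54, 0.47 and 1.07. These comparisons share libraries, so the likeness is over 5 groups and not over independent contrasts.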

How the data were processed

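Total RNA of 15 dewlap fat biopsies was depleted of ribosomal RNA and sequenced as stranded single reads. Per the labels and methods, the authors demultiplexed with bcl2fastq 2.15.0, trimmed with cutadapt 1.3, aligned with TopHat2 to bosTau8, and counted exons and entire genes with HTSeq. The authors deposited, for each of 6 pairs of groups, the mean normalised count of a gene over 6 libraries, beside their own fold changes, standard errors, test statistics and p-values, which were not used here.

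The deposited means carry 15 digits. Each is a sum of whole reads divided by size factors, so the size factors were read from genes with a single read and the 15 counts per gene were solved from the 6 tables by lattice reduction, accepting relative errors up to 1e-13. This gave 13891 of 13896 genes for exons and 13889 for whole genes, without COL1A1, COL1A2, COL3A1, FN1 and SCD (and FBN1 and SPARC in whole genes). Size factors recomputed from the counts by the median of ratios differed from those read by at most 0.0452% (exons) and 0.0757% (whole genes). Groups are known for each count, individual samples are not. Spike-in entries (92) were left out of fits. The number of columns of per-sample values left unused was 0.

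Genes with at least 10 reads over the libraries of a fit were tested with limma 3.58.1 (voom, R 4.3.3) on the 2 groups compared, with p-values adjusted by Benjamini-Hochberg over all genes. The plan had named the authors' DESeq2 test or, for counts, edgeR. The authors' results were not used, edgeR was not used because it was kept for deposited columns of counts, and limma voom was fitted on the solved counts in its place. Levels are counts divided by median-of-ratios size factors over the 15 libraries. Overlapping genes were not resolved. The recovery and the main fit between -4 wkpp and HE 1 were tested on simulated data, and the outcome is not given here.

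The members, the gene lists and the tests were chosen with earlier results of these data known. Named were all members, other pathway genes called in at least 2 comparisons or among the 3 largest called changes of a comparison, counts of up to 5 in full (ADCY4, PDE4A and PKIG fall outside this and were named after their values were seen), and the 5 genes most like PRKAR2B. Sequences are not shown because no genome of the build was used here. The precision is limited by 2200989 exonic reads in the shallowest library and by 3 libraries per group. Alternatives were the exon or whole gene analysis alone, a threshold of 0.05, a minimum mean count of 100 and leaving out each library. Added after seeing the data were no filter, scaling by total counts, log2 values (pseudocount 1) with a trended variance and 1 fit of all 15 libraries.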

Additional observations from a re-analysis of the deposited data

How the results depend on the processing

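No member was called under any alternative between -4 wkpp and LE 1, between LE 1 and HE 1, within either diet or in the test between diets, and leaving out any single library called 0 members in every comparison. Between -4 wkpp and HE 1 the count of members went from 0 to 2 in the exon analysis alone, and to 1 (PRKAR2B) at a threshold of 0.05, with a minimum mean count of 100 and in the fit of all 15 libraries. Between LE 16 and HE 16 it went to 1 (PKIA) in the exon analysis alone and at 0.05. Of the other pathway genes, 9 were called between -4 wkpp and HE 1 in the exon analysis alone, 8 at 0.05, 5 with the minimum of 100, 7 in the fit of all libraries and 0 to 4 without a single library, against 3. Between LE 1 and HE 1 these counts were 2 in exons alone, 4 in the fit of all libraries and 0 to 4 without a single library, against 0. Between LE 16 and HE 16 they were 3 with no filter and 1 to 3 without a single library, against 8. The cause of these changes was not tested.

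Levels relative to -4 wkpp moved by more than 1 SD of the exonic counts of the group's 3 libraries when whole gene counts replaced exonic counts. They became 1.40 in HE 1 and 0.618 in HE 16 for PDE4B, 1.23 in LE 1 for PRKAR1A, 0.923 in LE 1, 0.772 in HE 1 and 1.02 in HE 16 for PRKAR2A, 0.449 in HE 1 and 0.554 in HE 16 for PRKAR2B, 1.03 in HE 1 for PRKACA, 1.16 in LE 16, 0.641 in HE 1 and 1.04 in HE 16 for PRKACB, and 0.602 in LE 1 and 1.86 in HE 1 for PKIA. The whole gene counts have spreads of their own, which are not part of this measure. No direction of a called result reversed.

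Over all genes the number called between -4 wkpp and HE 1 was 113, and it was 1690 in exons alone (1671 among genes tested in both analyses), 983 at 0.05, 716 with the minimum of 100, 64 with no filter, 219 with total scaling, 215 with a trended variance, 1027 in the fit of all libraries and 0 to 182 without a single library (182 without HE 1 library 1). Between LE 16 and HE 16 it was 366, and 1079 in exons alone (1065 among genes tested in both), 1247 at 0.05, 614 with the minimum of 100 and 27 to 133 without a single library. Between -4 wkpp and LE 1 it was 4, and 65 in exons alone (64 among genes tested in both), 58 at 0.05, 27 with the minimum of 100, 24 with a trended variance, 25 in the fit of all libraries and 0 to 72 without a single library (72 without LE 1 library 2). Between LE 1 and HE 1 it was 0, and 104 in exons alone, 50 at 0.05, 294 in the fit of all libraries and 707 without HE 1 library 1.

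No paired analysis was possible because the libraries behind the deposited means carry no replicate number of the labels. The planned scale by regression and the least squares solution of the levels were not run, since the reads of each library were solved exactly. PKIA had the fewest reads of the members, with 7 exonic reads in 1 HE 1 library.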
